A study of Mus musculus with 11 samples.

Results

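The comparison was between germ cells of the mouse fetal gonad at stages E13.5 and E11.5 (E for embryonic day), measured with 45281 probes on Illumina BeadChip arrays. It used 6 of the 11 arrays of the study, 3 per stage, and all 17613 probes with a detection p-value below 0.01 on at least 2 of those 6 arrays. Of the kept probes, 14553 carried 1 gene symbol and stood for 9423 genes. Germ cells were sorted by flow cytometry as the fraction positive for green fluorescent protein (GFP) driven by Pou5f1, from embryos of a CBA/CaJ by C57BL/6J stock at generation F16+ that was crossed to Hsd:ICR(CD-1), per the labels. Both groups carried the reporter, and neither was treated. The E13.5 arrays were of male gonads, whereas the E11.5 arrays were labelled male/female, so that an effect of sex and one of stage cannot be told apart for a sex-dependent gene. The remaining arrays, of E15.5 male germ cells (3) and of GFP-negative cells from male gonads at E13.5, called non-germ cells here (2), are given only as levels. The germ cell markers Pou5f1, Ddx4 and Dazl were detected on all 6 compared arrays and on neither non-germ array. Replicates were labelled biological, with no number of embryos per array in the labels.

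Primordial germ cells reach the genital ridges while still dividing and while carrying a pluripotency-like program, and their DNA methylation is then erased across much of the genome. In male gonads, Sertoli cells form around them, and the germ cells begin to leave the cell cycle, avoid meiosis and take on the prospermatogonial program, of which the RNA-binding protein Nanos2 is the best known marker. New DNA methylation, guided at transposons by PIWI proteins and their small RNAs, follows in later fetal life. These are textbook facts and not results of the arrays.

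All levels below are normalized log2 intensities, and a difference is the E13.5 mean minus the E11.5 mean with its standard error (SE) from limma, n = 3 arrays per stage. A gene was called when its limma p-value, adjusted by the Benjamini-Hochberg method over all kept probes, was below 0.05. A probe was detected on an array when its detection p-value was below 0.01. Where a gene was undetected on all 3 arrays of 1 stage, the lowest detected level of each array of that stage stood in for it, and the resulting bound on the fold is given as "at least". Where 1 or 2 of the 3 arrays of a stage detected a gene, the difference is that of the measured means, undetected values included. Genes detected on only 2 arrays at E13.5 included Ak1, Bad, Cldn7, Dlx3, Etv4, Fosb, Foxh1, Gadd45b and Rhox6. At E11.5 they included Bnc1, Dnaic1, Orc3, Otx2, Prps1 and Shtn1. Gtsf1 and Rhox10, undetected at E11.5, were detected on only 2 E13.5 arrays, and Esam, undetected at E13.5, on only 2 E11.5 arrays. Genes detected on 1 array of a stage are marked where their levels are given. Pearson correlations of the arrays over the kept probes were 0.898 to 0.928 between the stages, 0.97 to 0.974 among the E11.5 arrays and 0.971 to 0.982 among the E13.5 arrays, and between 14860 and 16573 probes were detected on each of the 6 arrays. Fewer cells expressing a gene and less of its RNA per cell cannot be told apart in these bulk samples.

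Genes called higher in E13.5 than in E11.5 germ cells included Nanos2, Taf7l, Mael, Sycp1, Lefty1 and Dnmt3b, of RNA regulation, transcription, the piRNA pathway, meiotic chromosomes, Nodal signalling and DNA methylation. Those called lower included Rhox6, Cdx2, Id1, Cxcr4, Fos and Gadd45a. Of the 17613 probes, 2248 were called higher at E13.5 (12.8%) and 2084 lower (11.8%). By gene, 2543 of 9423 were called (27%), of which 1365 were higher (14.5%) and 1178 lower (12.5%). Each count of a gene list below stands against these shares. A change of at least 2-fold was called for 631 genes upward (6.7%) and 520 downward (5.52%), one of at least 4-fold for 115 and 119, and one of at least 8-fold for 29 and 30. The 3 levels of one stage lay wholly above or below those of the other for 4346 genes (46.1%), and for 2537 of the 2543 called. From undetected on all 3 arrays to detected on all 3 went 190 genes, and 176 went the other way. Such genes passed the detection filter through 1 stage alone and therefore had to differ. The median difference over all genes was 0.014.

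**Figure D1:**
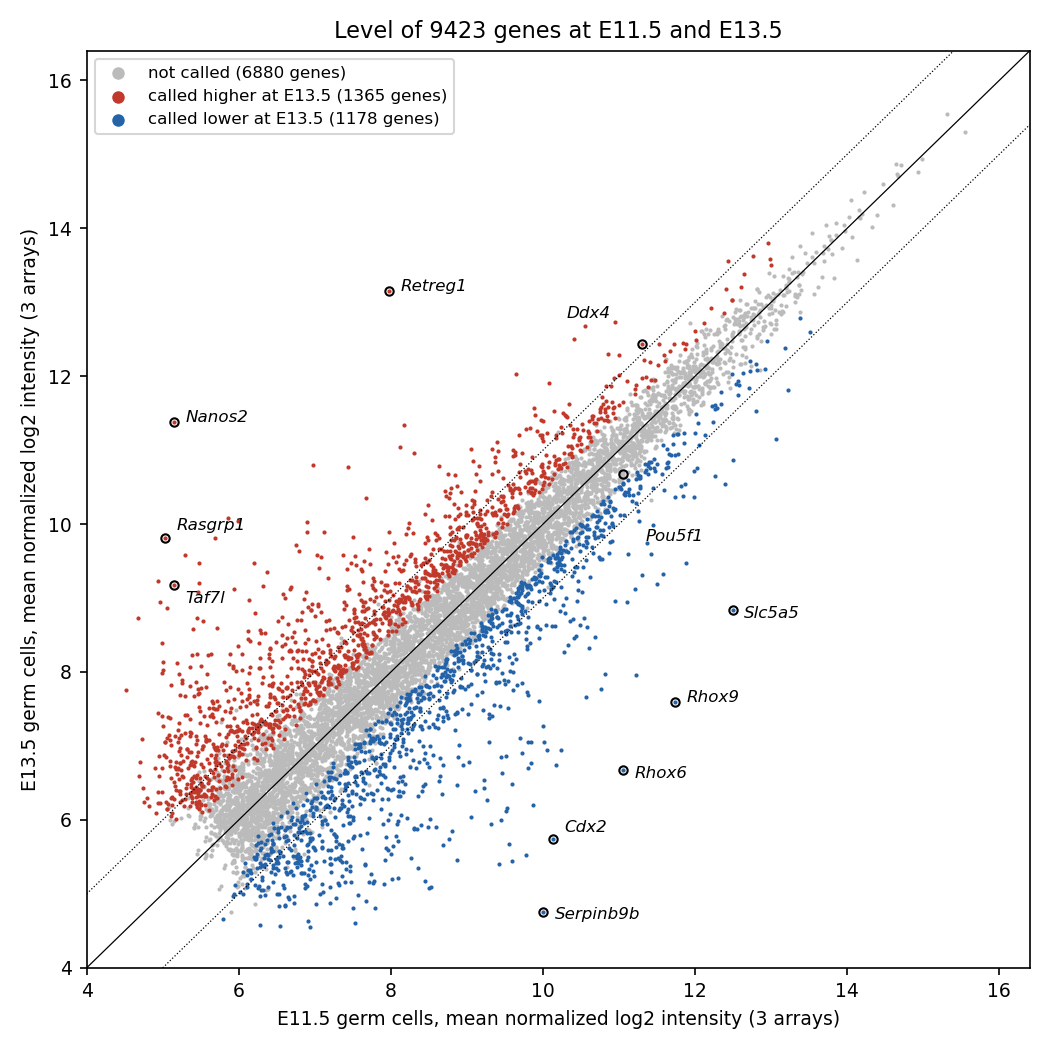
Mean normalized log2 intensity of each of 9423 genes on the 3 E11.5 arrays (horizontal axis) and the 3 E13.5 arrays (vertical axis). Red points are the 1365 genes called higher at E13.5, blue points the 1178 called lower and grey points the rest; the solid line marks equal levels and dotted lines a 2-fold difference. Nanos2, Rasgrp1 and Taf7l lie at the dim end of the E11.5 axis and well above the line, while Pou5f1 lies close to it.

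The sequences shown here are the 250 bases before the start site of 4 germ line genes that rose, because the text returns to the promoter motifs they hold. They are from RefSeq on the GRCm38.p6 build, written 5′ to 3′ on the gene's own strand. Capitals mark the E-box CACGTG and the E2F-type motif GCGGGAA (or its reverse complement TTCCCGC), and the Nanos2 sequence held neither motif and no CG pair.
Nanos2, chr7:18987274-18987523, plus strand: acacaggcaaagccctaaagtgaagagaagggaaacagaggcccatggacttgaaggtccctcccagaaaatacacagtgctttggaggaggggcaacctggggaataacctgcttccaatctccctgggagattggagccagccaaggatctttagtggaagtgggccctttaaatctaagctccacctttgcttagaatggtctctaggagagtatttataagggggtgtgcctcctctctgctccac
Ddx4, chr13:112652311-112652560, minus strand: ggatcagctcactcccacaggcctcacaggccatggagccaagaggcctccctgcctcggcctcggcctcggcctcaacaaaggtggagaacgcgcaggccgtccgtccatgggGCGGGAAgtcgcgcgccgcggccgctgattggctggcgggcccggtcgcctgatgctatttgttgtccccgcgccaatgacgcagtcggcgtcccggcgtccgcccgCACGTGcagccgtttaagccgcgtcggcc
Mael, chr1:166238745-166238994, minus strand: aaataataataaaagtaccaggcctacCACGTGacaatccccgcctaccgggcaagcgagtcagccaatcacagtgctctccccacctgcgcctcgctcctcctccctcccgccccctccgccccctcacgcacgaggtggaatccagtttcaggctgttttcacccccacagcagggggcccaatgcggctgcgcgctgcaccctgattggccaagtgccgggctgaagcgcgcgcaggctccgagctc
Sycp1, chr3:102936101-102936350, minus strand: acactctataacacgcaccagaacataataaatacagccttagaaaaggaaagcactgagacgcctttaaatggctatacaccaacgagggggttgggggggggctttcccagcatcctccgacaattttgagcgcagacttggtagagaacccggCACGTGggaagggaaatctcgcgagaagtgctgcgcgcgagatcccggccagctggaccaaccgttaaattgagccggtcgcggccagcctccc

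Regulators of germ cell RNA included Nanos2, the gene with the highest fold bound of all. Of 12 measured members 8 rose and 0 fell, against 14.5% and 12.5% of all genes, and the median difference of the list was 0.71. Nanos2, which binds RNA and holds male germ cells out of meiosis, read 5.11, 5.28 and 5.06 on the E11.5 arrays and 11.58, 11.60 and 10.96 on the E13.5 arrays. It was undetected on every E11.5 array and on both non-germ arrays, at 4.98 and 4.91, and rose at least 38.4-fold (adjusted p = 6.08e-06). Tdrd7, a Tudor-domain protein of RNA granules, moved from 5.01, 5.22 and 5.96 to 8.93, 8.61 and 8.19, which is at least 5.49-fold (adjusted p = 0.000276). Ddx25, an RNA helicase, rose by 1.59 ± 0.26 (adjusted p = 0.00389) from 7.09, 7.86 and 7.96 to 9.45, 9.30 and 8.92. The groups of these 3 genes did not overlap, as for 46.1% of all genes and nearly every called one.

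Among the older members of the RNA regulators, which E11.5 germ cells already expressed, changes were smaller. Ddx4 (the Vasa helicase) stood at 11.31, 11.38 and 11.22 and then at 12.62, 12.27 and 12.42, a rise of 1.13 ± 0.15 (adjusted p = 0.00165). A second Ddx4 probe rose by 1.22 and the third differed by -0.25 (adjusted p = 0.357). Dazl, an RNA-binding protein that licenses germ cells for sexual development, measured 12.04, 12.42 and 12.18 at E11.5 against 13.08, 12.98 and 12.70 at E13.5. Its difference of 0.71 ± 0.17 (adjusted p = 0.0212) was no longer called without E11.5 replicate 1 or 3 or without E13.5 replicate 1 or 2, where the adjusted p reached 0.0681, and a second Dazl probe gave 0.26 (adjusted p = 0.411). Nanos3, the paralog that protects migrating germ cells, read 9.75, 9.56 and 9.58 and then 9.62, 9.48 and 9.16, and its difference of -0.21 ± 0.17 did not pass (adjusted p = 0.415).

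Of 10 measured genes of PIWI proteins and the piRNA pathway, which silences transposons in the germ line, 8 rose and 0 fell, with a median difference of 1.17. The shares over all genes were 14.5% and 12.5%. Without E11.5 replicate 1 or E13.5 replicate 1 or 2 the count higher was 6. Mael, a piRNA pathway protein, went from 6.36, 7.59 and 6.94 to 8.69, 9.0 and 9.05, a gain of 1.95 ± 0.29 (adjusted p = 0.0026). Piwil1 (MIWI) gained 1.94 ± 0.22 (adjusted p = 0.000766), its E11.5 levels being 6.70, 6.84 and 6.74 and its E13.5 levels 9.12, 8.72 and 8.26. Gtsf1, a PIWI partner, was undetected at E11.5 (4.69, 4.78 and 4.74), spread from 5.60 to 7.41 at E13.5 and reached 9.60 to 10.62 at E15.5. Its bound was at least 1.24-fold, with an adjusted p of 0.0174. Both Mael and Piwil1 were higher still at E15.5, at 9.90 to 10.61 and 11.41 to 11.99.

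The Tudor-domain list, whose proteins bind methylated PIWI tails, had 4 of 10 members called higher and 0 lower, with a median difference of 0.55. Tdrd5 rose by 1.97 ± 0.18 (adjusted p = 0.000336), from 9.06, 9.0 and 9.08 to 11.26, 11.11 and 10.66. Stk31 rose by 1.47 ± 0.23 (adjusted p = 0.00335), from 9.18, 9.56 and 9.36 to 11.33, 10.58 and 10.59. Tdrd9 measured 6.33, 5.52 and 5.67 (detected on 1 array) and then 7.76, 7.25 and 6.17, and its difference of 1.22 ± 0.40 did not pass (adjusted p = 0.0569), although it stood at 11.03 to 11.65 at E15.5.

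Of 16 germ line transcription factors on the array 10 were measured, with 7 called higher and 1, Etv5, called lower, against 14.5% and 12.5% of all genes. The other 6 were not detected on 2 of the 6 arrays. The median difference of the 10, 2.37, was the highest of the 45 gene lists, which were chosen with earlier results known. Members undetected at E11.5, such as Taf7l, passed the detection filter through E13.5 alone and raise that median. Pou6f1, a POU-domain factor, read 5.61, 5.79 and 6.19 (detected on 1 of the 3 arrays) and then 10.23, 10.13 and 9.87, a rise of the measured means of 4.21 ± 0.19 (adjusted p = 2.48e-05). Taf7l, the X-linked germ cell paralog of a TFIID subunit, was undetected at 4.92, 5.05 and 5.49 and then measured 9.95, 9.19 and 8.41, at least 8.36-fold higher (adjusted p = 0.000276). Bnc2, a zinc-finger protein of male germ cells, rose by 3.82 ± 0.15 (adjusted p = 1.74e-05) from 6.96, 6.92 and 7.05 to 10.68, 10.97 and 10.73, and its other 2 probes by 3.52 and 3.05. Bnc1, its relative, gained 2.97 ± 0.30 (adjusted p = 0.000483). Pou6f1 and Bnc2 were also detected on both non-germ arrays, at 9.45 and 9.19 and at 9.78 and 9.70, whereas Taf7l was on neither. Etv5 differed by -0.58 ± 0.16 (adjusted p = 0.0301), a call that was lost without E11.5 replicate 1 or 3 or any one E13.5 array (adjusted p up to 0.0971).

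**Figure D2:**
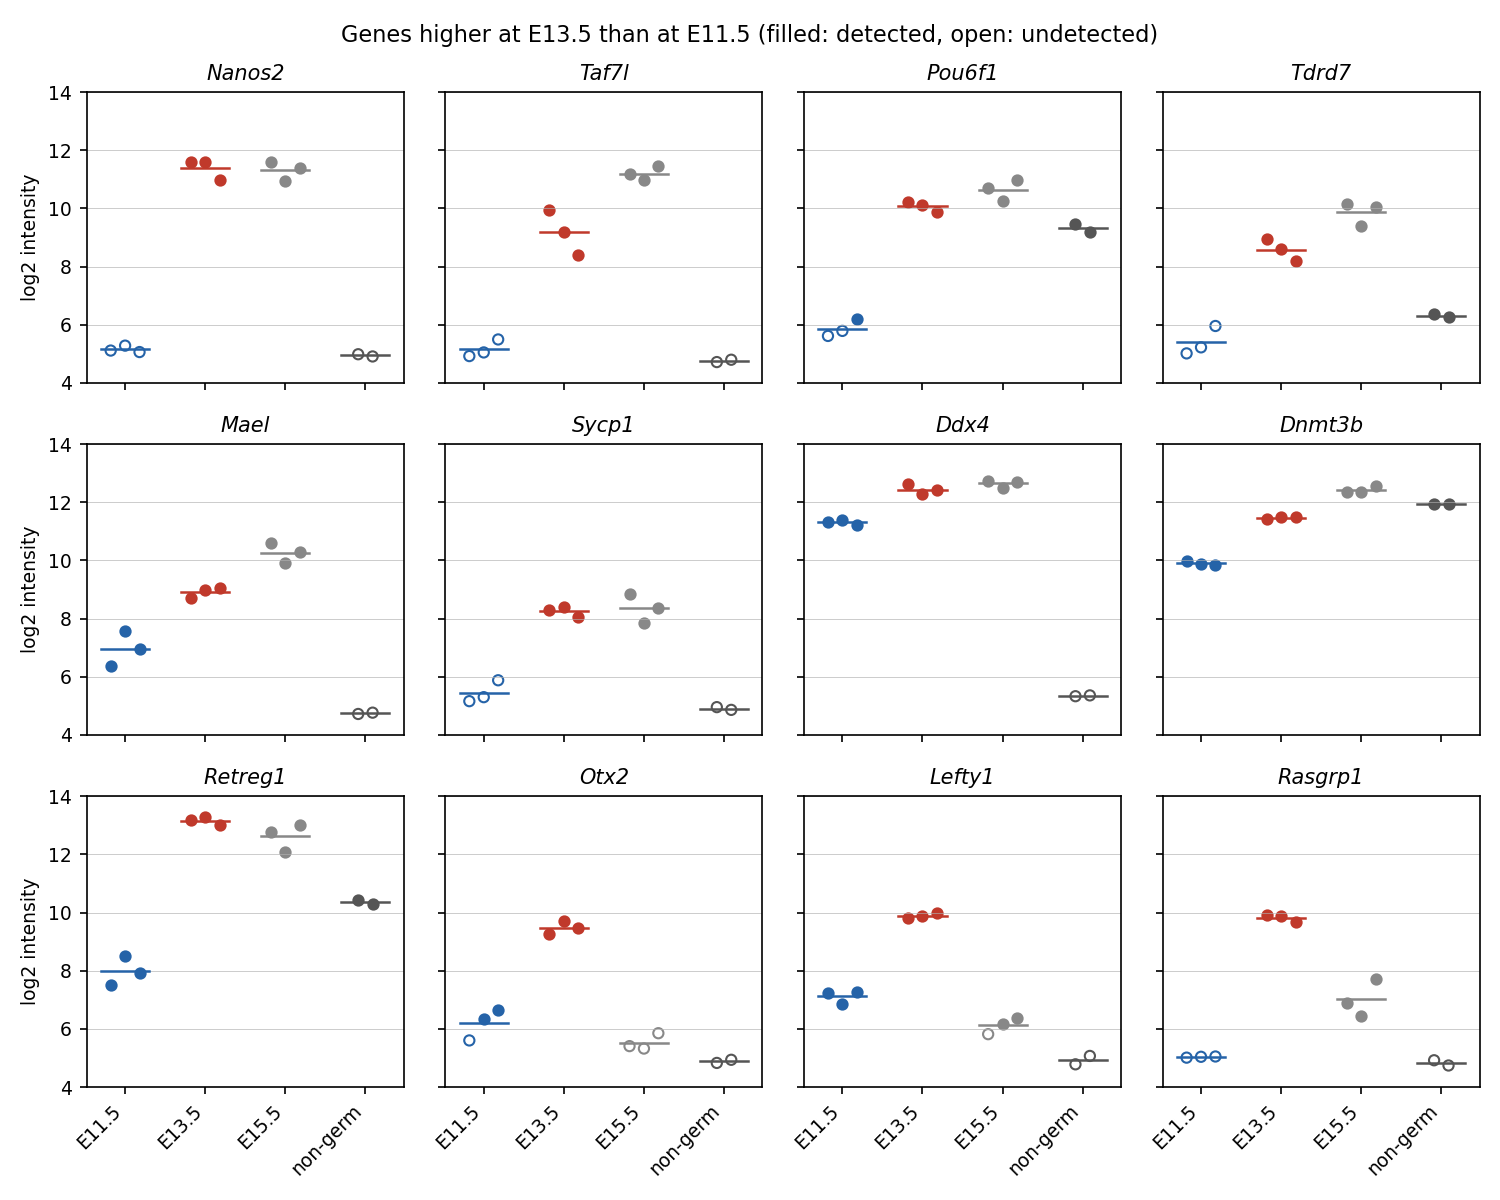
Normalized log2 intensity (vertical axes) of 12 genes called higher at E13.5 on the 11 arrays, in columns for E11.5, E13.5 and E15.5 germ cells and for non-germ cells of E13.5 gonads. Each point is 1 array, filled where the probe was detected and open where not, and each short line is a group mean. No E13.5 germ cell point overlaps an E11.5 point of the same gene; Otx2 and Lefty1 are back near or below their E11.5 levels at E15.5, whereas Taf7l, Tdrd7 and Mael stand higher there.

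Synaptonemal complex and cohesin genes, whose products build the meiotic chromosome axis, had 9 of 16 measured members called higher and 1 lower, with a median difference of 0.90. Sycp1, the transverse filament of the complex, was undetected at 5.16, 5.30 and 5.88 at E11.5 and measured 8.29, 8.41 and 8.04 at E13.5, at least 4.38-fold higher (adjusted p = 0.000165). Sycp2, an axis protein, moved from 5.00, 5.04 and 5.05, all undetected, to 7.01, 7.39 and 6.75, at least 1.91-fold (adjusted p = 0.00031). Tex11, an X-linked meiotic protein, rose by 2.00 ± 0.20 (adjusted p = 0.000419) from 6.97, 6.68 and 6.29 to 8.69, 8.72 and 8.51. In the other direction, Syce2, a central element protein, differed by -0.64 ± 0.15 (adjusted p = 0.0164), and that call was lost without E11.5 replicate 1 (adjusted p = 0.0536).

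Of the genes of meiotic entry and recombination, 1 of 6 measured members was called higher and 0 lower, or 2 higher without E13.5 replicate 1. Spo11, which cuts DNA to start recombination, read 8.55, 9.06 and 9.39 and then 9.57, 10.08 and 9.89; its difference of 0.85 ± 0.24 (adjusted p = 0.0361) was lost without replicate 1 or 2 of E11.5 or replicate 2 or 3 of E13.5 (adjusted p up to 0.114). Stra8, the retinoic acid target that starts meiosis, was undetected on all 6 arrays, at 4.46 to 4.53 at E11.5 and 4.55 to 4.83 at E13.5. Among 5 measured genes of the retinoic acid response, 1 was called lower and 0 higher. That was Crabp1, a cytoplasmic retinoic acid binding protein, which fell from 7.39, 7.42 and 7.25 to 5.39, 5.97 and 5.50, where it was undetected (at least 2.28-fold, adjusted p = 0.000583).

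Promoters were searched for the E-box CACGTG, which Max dimers bind, in the 250 bases before the start (the motif reads the same on both strands). Among 48 measured genes of the germ line lists with a promoter in the table, 15 held it (31.2%), against 684 of 7736 measured genes (8.84%) and 1634 of 27025 promoters in all (6.05%). The share was much the same for the members that were called higher, 9 of 28 (32.1%), as for those that were not called, 6 of 18 (33.3%). Ddx4, Mael and Sycp1 of the printed sequences carry it, and Nanos2, the gene with the highest bound, does not. Over all genes it was present at 121 of 1123 promoters of genes called higher (10.8%) and 73 of 963 of those called lower (7.58%). A match is a string of letters and not a bound site.

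Nodal signalling, a TGFβ-family pathway that acts through Activin receptors, Smad2 and Foxh1 and that switches on its own inhibitors Lefty1 and Lefty2, was called higher for 5 of 14 measured genes and lower for 2. Without any one of E11.5 replicates 2 and 3 and the E13.5 arrays the first count was 3, and the second was 1 without E13.5 replicate 3. Lefty1 rose by 2.77 ± 0.17 (adjusted p = 5.67e-05), from 7.24, 6.85 and 7.28 to 9.82, 9.88 and 9.98. Otx2, a homeobox gene, rose by 3.27 ± 0.27 (adjusted p = 0.000218), from 5.60, 6.33 and 6.66 to 9.26, 9.69 and 9.45. Lefty2 differed by 0.87 ± 0.27 (adjusted p = 0.0484), a call lost without E11.5 replicate 2 or 3 or any one E13.5 array (adjusted p up to 0.139). In contrast Foxh1, the pathway's DNA-binding partner of Smads, fell by 2.05 on the log2 scale (SE 0.19, adjusted p = 0.000348), from 8.79, 8.64 and 8.50 to 6.26, 6.60 and 6.90. Otx2 was undetected on the E15.5 arrays, at 5.32 to 5.85, and Lefty1 measured 5.82 to 6.39 there.

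Of 18 measured pluripotency genes 4 were called lower and 1 higher, a share near the 27% of all genes called, and the median difference was -0.26. Pou5f1, which also drives the sorted reporter and is therefore not independent of the gate, read 11.10, 11.12 and 10.93 and then 10.77, 10.54 and 10.71, a difference of -0.38 ± 0.15 (adjusted p = 0.0999). Nanog, a homeobox factor of the same network, differed by -0.11 ± 0.22 (adjusted p = 0.742), with overlapping groups at 11.59 to 12.33 and 11.66 to 12.10. Sox2, the partner of Pou5f1, fell by 0.82 (SE 0.16, adjusted p = 0.00806), from 11.97, 11.72 and 11.63 to 11.09, 10.85 and 10.91. Klf2, a Krüppel-like factor, fell by 1.81 (SE 0.18, adjusted p = 0.000431), and Tfcp2l1 fell by 1.13 (SE 0.17, adjusted p = 0.00244). Klf2 went on to 5.48 to 6.51 at E15.5, while Tfcp2l1 was at 9.99 to 10.94 there. The 1 member called higher, Klf4, was undetected at E11.5, rose at least 1.46-fold (adjusted p = 0.0239) and lost its call without E11.5 replicate 1 or 2 or E13.5 replicate 2 (adjusted p up to 0.0662).

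Genes that mark the early primordial germ cell were called lower for 7 of 17 measured and higher for 3, the latter count being 1 without E11.5 replicate 3 or E13.5 replicate 2. Alpl, the tissue-nonspecific alkaline phosphatase long used to stain these cells, fell by 1.49 (SE 0.23, adjusted p = 0.0031), from 10.66, 10.34 and 10.33 to 9.44, 8.62 and 8.80. Tfap2c, a transcription factor needed to specify them, fell by 1.28 (SE 0.14, adjusted p = 0.00069), from 12.72, 12.91 and 12.79 to 11.44, 11.60 and 11.54. Cxcr4, the chemokine receptor that guides them to the gonad, fell by 1.25 (SE 0.16, adjusted p = 0.00109), from 10.97, 10.64 and 10.73 to 9.48, 9.64 and 9.46. The stages did not overlap in these 3 called genes, and the E15.5 levels were within 1 log2 unit of those at E13.5. Against that balance Fut4, the enzyme that makes the SSEA1 epitope, was undetected at 5.08, 5.96 and 5.53 and then measured 7.23, 7.13 and 6.64, at least 1.85-fold higher (adjusted p = 0.00493).

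The Rhox genes, a cluster of homeobox genes on the X chromosome, held the 2 largest falls of any gene detected on at least 2 arrays of each stage. Rhox6 read 11.05, 11.08 and 11.02 at E11.5 and 6.30, 6.74 and 6.98 at E13.5, a fall of 4.38 on the log2 scale (SE 0.19, adjusted p = 2.32e-05) or 20.8-fold. Rhox9 fell by 4.15 (SE 0.37, adjusted p = 0.000276), from 11.69, 11.80 and 11.74 to 6.65, 7.81 and 8.31. Neither was detected at E15.5 or in the non-germ cells. Rhox5 fell by 1.26 (SE 0.15, adjusted p = 0.000884) and Rhox10 was called higher, from 4.97, 4.60 and 4.68 to 6.79, 6.25 and 5.67, at least 1.09-fold (adjusted p = 0.00647). Of 5 measured members 3 thus fell and 1 rose. The E11.5 arrays were of mixed sex, so that sex and stage cannot be told apart for these X-linked genes.

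Over the whole X chromosome, 64 of 347 measured genes were called higher (18.4%) and 68 lower (19.6%), against 14.4% and 12.3% of 9048 autosomal genes. Xist, the RNA that coats an inactive X, was 7.60, 6.78 and 6.79 at E11.5 and 6.65, 6.04 and 5.73 at E13.5 (detected on 1 array), a difference of -0.92 ± 0.30 that did not pass (adjusted p = 0.0573). The Y-linked translation factor gene Eif2s3y was detected on every array, at 10.40, 9.44 and 10.76 and then 10.95, 11.53 and 11.24, with a difference of 1.04 ± 0.33 that did not pass (adjusted p = 0.0519). Usp9y, a Y-linked deubiquitinase, was undetected at 5.79, 5.19 and 5.76 and then measured 6.99, 6.59 and 6.91, at least 1.64-fold higher (adjusted p = 0.00427). It stood at 8.50 to 9.47 at E15.5 and was undetected in the male non-germ cells. Kdm5d and Uty, also Y-linked, differed by 0.54 and -0.08 and were not called (Uty was detected on 1 array of each stage), and Ddx3y had no probe with its name. Leaving out X- and Y-linked probes gave 1297 genes higher and 1110 lower.

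Of 30 genes of the Hox and caudal list on the array, 22 were not detected on 2 of the 6 arrays. Of the 8 measured 2, Cdx2 and Gbx2, were called lower and 0 higher, so that no Hox gene was called. The count lower was 4 without E11.5 replicate 2. Cdx2, a caudal-type factor, stood at 9.81, 10.45 and 10.14 and then, undetected, at 5.70, 5.45 and 6.06, at least 15.7-fold lower (adjusted p = 2.78e-05). Gbx2, a homeobox gene, fell by 2.40 (SE 0.20, adjusted p = 0.000201), from 11.78, 12.04 and 11.79 to 9.12, 9.56 and 9.74. Neither was detected in the non-germ cells.

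Of 14 measured genes of BMP signalling and its Id targets, 5 were called higher and 4 lower, against 14.5% and 12.5% of all genes. The count higher was 3 without E11.5 replicate 1 or 3 or E13.5 replicate 1, and 2 without E13.5 replicate 2. Id1, an inhibitor of bHLH factors that BMP induces, read 9.08, 9.79 and 9.06 and then 6.02, 5.86 and 5.93, undetected, which is at least 8.84-fold lower (adjusted p = 7.41e-05). Its paralog Id3 fell by 2.10 (SE 0.25, adjusted p = 0.001), from 7.98, 8.10 and 8.19 to 6.18, 5.40 and 6.39, detected on 1 E13.5 array. Id2 fell by 2.31 (SE 0.19, adjusted p = 0.000197), a call that a model over all 11 arrays did not keep (adjusted p = 0.0568). The ligand Bmp4 itself rose by 1.85 ± 0.17 (adjusted p = 0.000317), from 6.93, 7.19 and 6.99 to 9.13, 8.85 and 8.68. Id1, Id2 and Id3 were each detected on both non-germ arrays, at 9.28 and 9.74, 12.78 and 12.83, and 8.13 and 8.27.

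In the Wnt list 4 of 21 measured genes were called higher, 2 lower and 15 neither, against 14.5% higher and 12.5% lower of all genes. Wnt3, a ligand, was undetected at 4.80, 5.54 and 5.22 and then measured 8.05, 8.35 and 7.97, at least 4.02-fold higher (adjusted p = 0.000125). Sfrp2, a secreted Wnt binder, rose by 2.39 ± 0.20 (adjusted p = 0.000224), from 9.62, 9.84 and 9.46 to 12.39, 11.80 and 11.89. Fzd2, a receptor, rose by 2.10 ± 0.27 (adjusted p = 0.00132). Porcn, the X-linked acyltransferase that Wnt ligands need for secretion, went from 9.78, 9.31 and 9.27 to 6.02, 5.95 and 6.03, undetected and at least 9.76-fold lower (adjusted p = 3e-05). A second Porcn probe fell by 3.08. Lef1, a nuclear effector, fell by 1.19 (SE 0.21, adjusted p = 0.00579).

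The FGF and ERK list had 3 of 15 measured genes called higher and 4 lower, against 14.5% and 12.5% of all genes. The count lower was 2 without E13.5 replicate 3. Rasgrp1, an exchange factor that activates Ras, read 5.01, 5.04 and 5.05 and then 9.91, 9.87 and 9.67, at least 13-fold higher (adjusted p = 6.08e-06), with 6.45 to 7.72 at E15.5. Etv1, an ETS factor, rose by 1.91 ± 0.22 (adjusted p = 0.000849), from 7.95, 7.63 and 8.36 to 9.60, 10.01 and 10.06. Dusp5, a phosphatase that ERK induces, fell by 1.48 (SE 0.16, adjusted p = 0.000663), and Etv4, another ETS factor, fell by 0.95 (SE 0.22, adjusted p = 0.0159).

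Migration and guidance genes leaned downward, with 9 of 17 measured called lower and 2 higher, against 12.5% and 14.5% of all genes, and a median difference of -0.50. The count lower was 5 when the spread was estimated over all 11 arrays. Tmsb4x, an X-linked actin-sequestering peptide, fell by 4.14 (SE 0.36, adjusted p = 0.000261), from 10.03, 8.93 and 9.81 to 5.18, 5.03 and 6.13, detected on 1 of the 3 E13.5 arrays. Slit2, a secreted guidance cue, went from 9.78, 9.0 and 9.48 to 5.54, 5.02 and 5.67, undetected and at least 9.53-fold lower (adjusted p = 6.21e-05). A second Slit2 probe fell by 4.03, and the third differed by 0.11 (adjusted p = 0.828). Vim, an intermediate filament protein of mesenchyme, fell at least 2.27-fold (adjusted p = 0.00109), which a model over all 11 arrays did not call (adjusted p = 0.0535). The Slit receptor Robo1 rose by 1.25 ± 0.15 (adjusted p = 0.00102) and Sema6d, a semaphorin detected on 1 E11.5 array, by 1.54 ± 0.22 (adjusted p = 0.00226). In the non-germ cells Tmsb4x was at 12.14 and 12.43, Slit2 at 12.03 and 12.02 and Vim at 9.60 and 10.14, all above their E11.5 germ cell levels. The part of other gonadal cells in the E11.5 levels of these 3 genes was not tested.

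Of 20 measured adhesion genes 4 were called lower and 4 higher, against 12.5% and 14.5% of all genes; the second count was 2 without any one E11.5 array or E13.5 replicate 1, and 1 without E13.5 replicate 2 or 3. Cldn7, a tight junction claudin, fell by 3.36 (SE 0.25, adjusted p = 0.000141), from 9.64, 9.41 and 9.51 to 5.62, 6.66 and 6.19. Perp, a desmosomal protein, fell by 2.78 (SE 0.27, adjusted p = 0.00039). Itgb5, an integrin chain, rose by 2.36 ± 0.25 (adjusted p = 0.000604), from 6.52, 5.47 and 6.00, detected on 1 array, to 8.45, 8.25 and 8.36. Cldn7 read 8.73 and 7.87 in non-germ cells, below its E11.5 level, and Perp 6.68 and 6.49.

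**Figure D3:**
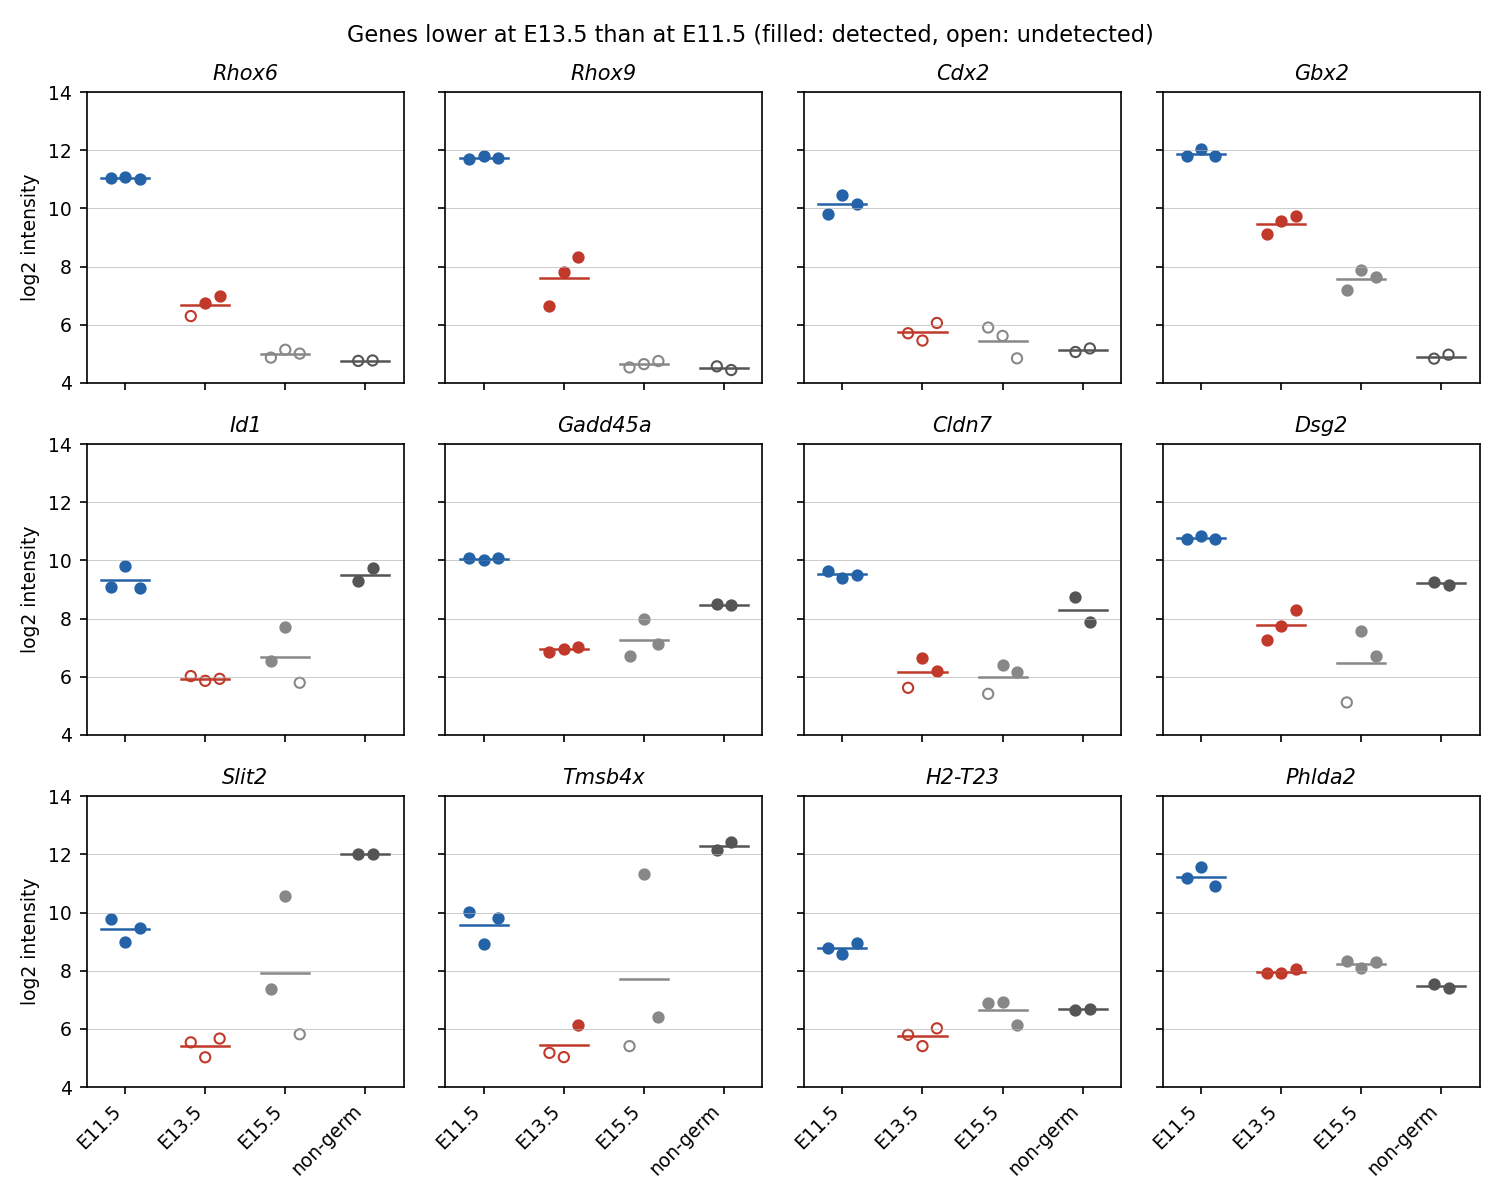
Normalized log2 intensity (vertical axes) of 12 genes called lower at E13.5 on the 11 arrays, in columns for E11.5, E13.5 and E15.5 germ cells and for non-germ cells. Each point is 1 array, filled where detected and open where not, and lines are group means. Rhox6, Rhox9, Cdx2 and Gbx2 are undetected in the non-germ cells, whereas Slit2 and Tmsb4x are higher there than on any E11.5 array, and 1 E15.5 array lies far above the others for both.

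Immediate early and heat shock genes, many of which respond within minutes to cell handling, were called lower for 7 of 15 measured and higher for 0, with a median difference of -0.73. Without E13.5 replicate 3 the count was 4. Fos, a subunit of AP-1, fell by 2.85 (SE 0.32, adjusted p = 0.000686), from 10.68, 11.21 and 10.58 to 8.03, 8.56 and 7.31. Fosb, its paralog, fell by 3.01 (SE 0.37, adjusted p = 0.00111), from 8.88, 9.42 and 9.51 to 5.41, 6.97 and 6.41. The Fosb call was not kept by a model over the 9 germ cell arrays (adjusted p = 0.0543). Fos was at 12.71 and 12.48 and Fosb at 12.21 and 11.71 in non-germ cells. The part of dissociation and sorting in these values was not tested.

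Of 6 measured DNA methyltransferases and their cofactors, 2 rose and 0 fell. Dnmt3b, a de novo methyltransferase, rose by 1.58 ± 0.14 (adjusted p = 0.000256), from 9.99, 9.86 and 9.84 to 11.43 and 11.49 on E13.5 replicates 1 and 3 and marginally above both on replicate 2. Uhrf1, which recruits the maintenance enzyme, rose by 1.12 ± 0.17 (adjusted p = 0.00271), from 12.30, 12.71 and 12.29 to 13.61, 13.43 and 13.62. Dnmt1, the maintenance enzyme, differed by -0.05 ± 0.27 (adjusted p = 0.911), and Dnmt3a, the other de novo enzyme, by -0.16 ± 0.24 (adjusted p = 0.66). Dnmt3l, the cofactor of de novo methylation, was detected on 1 of 3 E13.5 arrays and on none at E11.5, so it was not tested. Its 2 probes read 7.08 and 7.15 on E13.5 replicate 1.

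In the list of TET enzymes and base excision repair, the machinery linked to demethylation, 7 of 14 measured genes were called lower and 1 higher, and the median difference was -0.52. The count lower was 4 without E13.5 replicate 2 or 3. Gadd45a, a stress-induced protein named in active demethylation, fell by 3.11 (SE 0.14, adjusted p = 2.32e-05), from 10.08, 10.01 and 10.07 to 6.85, 6.95 and 7.03, and its second probe fell by 3.30. Gadd45b, its paralog, fell by 1.96 (SE 0.30, adjusted p = 0.00296), from 8.34, 8.61 and 8.38 to 5.78, 6.59 and 7.08. Tet1, which oxidizes methylcytosine, read 8.98, 8.51 and 8.86 and then 9.75, 9.30 and 9.55. Its difference of 0.75 ± 0.19 (adjusted p = 0.0236) was lost without E11.5 replicate 2 or 3 or E13.5 replicate 1 or 3 (adjusted p up to 0.0688). A model over the 9 germ cell arrays did not call Tet1 either (adjusted p = 0.109).

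Polycomb and other histone methylation genes were called at shares near those of all genes, 3 of 23 higher and 3 lower. The 3 called lower came to 0 without E11.5 replicate 2 or E13.5 replicate 3 and to 1 without E11.5 replicate 1 or 3 or E13.5 replicate 2. Kdm6b, a demethylase that removes the Polycomb histone mark, rose by 1.59 ± 0.15 (adjusted p = 0.000333), from 6.69, 6.83 and 6.54 to 8.36, 8.27 and 8.20, while its second probe differed by 0.16 (adjusted p = 0.559). Kdm5b, a demethylase that acts on a histone mark of active promoters, rose by 1.24 ± 0.19 (adjusted p = 0.00283).

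Among imprinted genes, which are expressed from 1 parental allele in most tissues, 8 of 22 measured were called lower and 5 higher. Without E11.5 replicate 2 or E13.5 replicate 2 or 3 the count lower was 5; the count higher was 3 without E11.5 replicate 3 and 2 without E13.5 replicate 2 or 3. Phlda2, a growth-restraining gene, fell by 3.27 (SE 0.19, adjusted p = 4.56e-05), from 11.19, 11.56 and 10.92 to 7.91, 7.91 and 8.05. Slc22a18, which neighbours it in the genome, fell by 2.25 (SE 0.28, adjusted p = 0.00109), though its second probe gave -0.20 (adjusted p = 0.711). Usp29 rose by 1.51 ± 0.30 (adjusted p = 0.00908), from 6.67, 6.30 and 7.37 to 8.12, 8.03 and 8.74. A second Usp29 probe, undetected at E11.5, was also called higher (adjusted p = 0.00436), and the third differed by -0.29 (adjusted p = 0.242). Igf2 fell by 2.43 (SE 0.42, adjusted p = 0.00497), from 9.27, 7.66 and 7.99 to 5.60, 5.59 and 6.45, detected on 1 E13.5 array. It was at 13.06 and 13.07 in non-germ cells, and a model over all 11 arrays did not call it (adjusted p = 0.0519).

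Cell cycle genes were called in both directions. Of 13 measured CDK inhibitors and p53 targets 4 rose and 2 fell. The former count was 2 without E11.5 replicate 2 or any one E13.5 array, and the latter 1 without E11.5 replicate 2 or 3 or any one E13.5 array. Cdkn2a, the locus of p16 and p19, rose by 1.73 ± 0.23 (adjusted p = 0.00159), from 7.49, 8.25 and 7.44 to 9.29, 9.54 and 9.54, and a second probe differed by 0.86 (adjusted p = 0.076). Cdkn1b (p27) rose by 1.56 ± 0.25 (adjusted p = 0.00351), from 7.51, 6.92 and 7.72 to 9.23, 9.01 and 8.59. Of 14 measured pocket protein and E2F genes 2 were called higher, 1 lower and 11 neither, against 14.5% higher and 12.5% lower of all genes. Rb1, the retinoblastoma protein that holds cells in G1, rose by 1.50 ± 0.19 (adjusted p = 0.00122), from 9.78, 9.56 and 9.99 to 11.59, 11.13 and 11.13. E2f2, an activating E2F factor, fell by 2.01 (SE 0.23, adjusted p = 0.000766), from 10.04, 10.41 and 10.38 to 7.96, 8.11 and 8.74. Of the 11 measured G1 to S cyclins and kinases 2 were called lower, 1 higher and 8 neither. Ccnd3 (cyclin D3) fell by 1.63 (SE 0.18, adjusted p = 0.000656), and Ccne1 (cyclin E1) went from 6.90, 7.73 and 7.22 to undetected, at least 2.17-fold lower (adjusted p = 0.00226). Cdk2, a kinase, rose by 0.59 ± 0.16 (adjusted p = 0.0303), and its other probes were not called. That call was lost without E11.5 replicate 1 or 3 or E13.5 replicate 2 or 3 (adjusted p up to 0.101).

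DNA replication genes were called lower for 11 of 39 measured and higher for 1, with a median difference of -0.43, and the count lower was 7 without E13.5 replicate 2. Cdc6, which loads the replicative helicase, fell by 1.36 (SE 0.27, adjusted p = 0.00929), from 9.99, 10.60 and 10.20 to 8.47, 8.78 and 9.45, and its other probe gave -0.50 (adjusted p = 0.263). Rrm1, the large subunit of ribonucleotide reductase, fell by 1.45 (SE 0.25, adjusted p = 0.00442) on its brightest probe, while 2 others gave -0.15 and -0.28 and were not called. Orc3, an origin-binding subunit, went up by 1.24 ± 0.20 (adjusted p = 0.00336). In contrast, of 24 measured mitosis genes 1 was called lower and 1 higher, with a median of 0.06; the former was Cenpa, the centromeric histone, which fell by 0.71 (SE 0.14, adjusted p = 0.00949). The latter, Ect2, a regulator of cytokinesis, rose by 0.73 ± 0.17 (adjusted p = 0.017), a call lost without E11.5 replicate 3 (adjusted p = 0.0547) or E13.5 replicate 3 (adjusted p = 0.054). The E2F-type motif was in the 250 bases upstream of 10 of 32 replication genes (31.2%) against 7.39% of measured genes and 3.84% of all promoters. Among the replication genes called lower it was in 2 of 11 (18.2%).

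Of the metabolic lists, none of 34 measured oxidative phosphorylation genes was called by limma, with a median of -0.07 and 5 at an unadjusted p below 0.05, and 1 was called lower without E13.5 replicate 1. Of 14 cholesterol synthesis genes 2 were called lower and 0 higher. Of 16 glycolysis and pyruvate genes 7 were called lower and 1 higher, with a median of -0.53. That count lower was 3 without E11.5 replicate 1 or 2 or E13.5 replicate 3, 4 without E11.5 replicate 3 and 2 without E13.5 replicate 2, and the 1 called higher was lost without E11.5 replicate 1 or 3 or E13.5 replicate 2 or 3. Ldha, a lactate dehydrogenase subunit, fell by 1.24 (SE 0.18, adjusted p = 0.00202), from 8.67, 8.65 and 8.49 to 7.07, 7.42 and 7.60.

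In the glutathione and metallothionein list 9 of 22 measured genes were called lower and 4 higher, the former 5 without E11.5 replicate 1 or E13.5 replicate 2 and the latter 2 without E13.5 replicate 2. The metal-binding metallothioneins Mt1 and Mt2 went from detected on 3 E11.5 arrays to undetected on 3 E13.5 arrays. Mt1 moved from 8.80, 7.94 and 8.05 to 5.89, 5.12 and 5.45, at least 4.28-fold lower (adjusted p = 0.000458), and was at 10.49 to 11.06 at E15.5. Mt2 was at least 2.34-fold lower (adjusted p = 0.000284). Mgst2, a microsomal glutathione transferase, went the other way, from 5.85, 5.26 and 5.33 to 9.42, 9.68 and 9.33, at least 10.3-fold (adjusted p = 2.78e-05).

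Of 12 measured genes of the BCL2 family and apoptosis, 2 were called higher and 3 lower, against 14.5% and 12.5% of all genes. The 2 that rose and the 3 that fell all encode pro-death BH3-type proteins. Pmaip1 (Noxa) was undetected at 5.40, 5.32 and 5.79 and then measured 7.93, 8.25 and 8.05, at least 3.89-fold (adjusted p = 0.000102). Bik rose at least 2.31-fold (adjusted p = 0.00106), from 5.52, 6.12 and 5.48 to 7.39, 7.22 and 7.37. Bad, a further BH3-only member, fell by 1.77 (SE 0.23, adjusted p = 0.00142), from 8.21, 8.01 and 8.07 to 6.77, 6.36 and 5.85. Bcl2l11 (Bim) fell by 0.79 (SE 0.18, adjusted p = 0.0161) and Bid, on its brightest probe, by 0.71 (SE 0.16, adjusted p = 0.0148). The first call was lost without E13.5 replicate 3 (adjusted p = 0.0545) and the second without E13.5 replicate 2 (adjusted p = 0.0553). A second Bid probe differed by 0.26 (adjusted p = 0.402), and the mean over the kept Bid probes by -0.22 (adjusted p = 0.258).

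Antigen presentation had 3 of 11 measured genes called lower and 1 higher. H2-T23, a non-classical MHC class I gene (Qa-1), went from 8.78, 8.57 and 8.97 to 5.80, 5.41 and 6.02, undetected and at least 6.08-fold lower (adjusted p = 8.07e-05), and its second probe fell by 2.84. H2-Bl fell by 3.88 (SE 0.27, adjusted p = 0.000102), from 9.67, 9.16 and 9.82 to 5.28, 5.55 and 6.18, detected on 1 E13.5 array. H2-D1, a classical class I chain, read 7.96, 7.91 and 7.82 and then 5.94, 5.91 and 5.98, at least 3.32-fold lower (adjusted p = 0.000102). Class I genes resemble one another closely over much of their length, and which of them each probe reads was not tested. B2m, the light chain, was undetected at E11.5, detected on 2 E13.5 arrays and at least 1.09-fold higher (adjusted p = 0.0478), a call lost without E11.5 replicate 2 or 3 or any one E13.5 array (adjusted p up to 0.116).

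Oocyte and germ line Nlrp genes were called higher for 3 of 6 measured and lower for 1, against 14.5% and 12.5% of all genes. Of the 3 called higher only Nlrp14 is an Nlrp gene (adjusted p = 0.0398). Its call was lost without E11.5 replicate 1 or 3 or any one E13.5 array (adjusted p up to 0.114). Khdc3 (Filia), a maternal effect gene of the egg, was undetected at 5.34, 5.74 and 5.54 and measured 8.65, 8.80 and 8.64 at E13.5, at least 5.97-fold higher (adjusted p = 2.78e-05), and 5.71 to 6.15 at E15.5. Ooep, its partner, rose by 1.11 ± 0.18 (adjusted p = 0.00359), from 9.29, 9.44 and 9.24 to 10.18, 10.73 and 10.39. Nlrp9b went from 6.56, 6.99 and 6.76 to undetected, at least 1.52-fold lower (adjusted p = 0.00148).

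**Figure D4:**
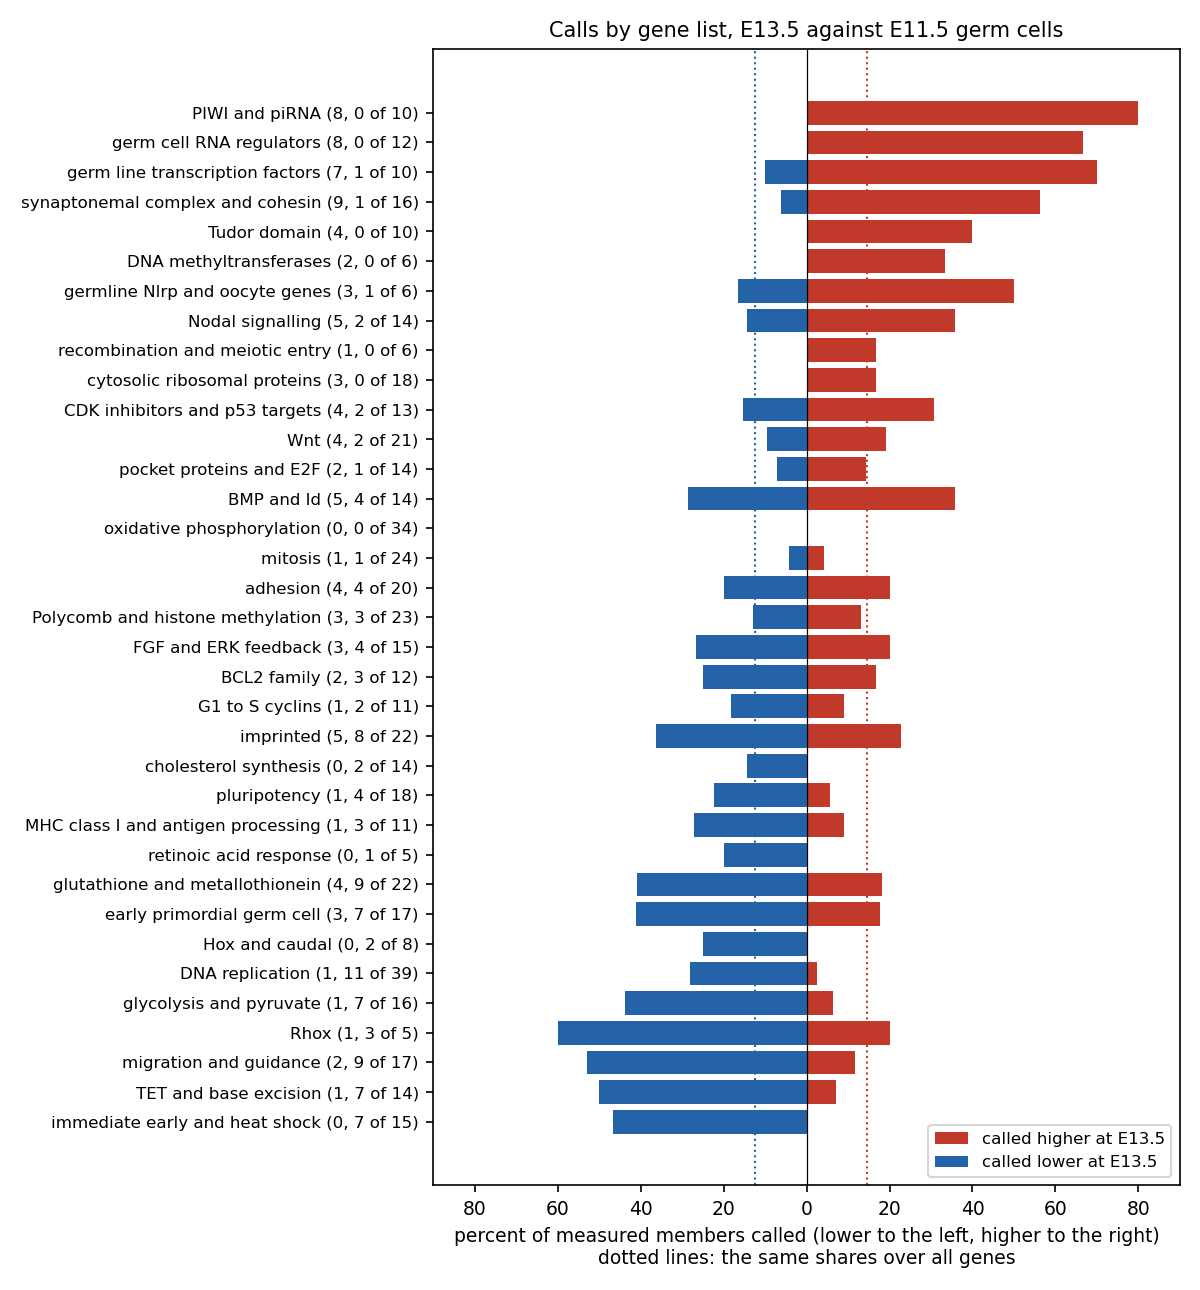
Share of the measured members of each of the gene lists other than the sex-linked lists and the markers of other gonadal cells that was called higher (red bars, to the right) or lower (blue bars, to the left) at E13.5, in percent; the numbers beside each name are the members called higher, called lower and measured. Dotted lines give the shares over all 9423 genes, 14.5% higher and 12.5% lower. Lists are ordered by the share higher minus the share lower; PIWI and piRNA genes have 8 of 10 higher and immediate early genes 7 of 15 lower.

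Outside the lists, the largest rises among genes detected at both stages were led by Retreg1, a receptor for autophagy of the endoplasmic reticulum. It read 7.52, 8.51 and 7.92 and then 13.17, 13.28 and 13.02, a rise of 5.18 ± 0.25 (adjusted p = 2.74e-05) or 36.1-fold. Cthrc1, a secreted collagen-repeat protein, rose by 3.33, Dapk2, a calmodulin-regulated kinase, by 3.17, Shtn1 (shootin) by 3.13 and Dgka, a diacylglycerol kinase, by 2.99. Dnaic1, a dynein intermediate chain of cilia, rose by 2.98, Col9a3, a collagen chain, by 2.92, Notch3, a receptor, by 2.85 and Prps1, an X-linked nucleotide synthesis enzyme, by 2.84. Of genes undetected at E11.5, Ucma was at least 13-fold higher, 6330509M05Rik at least 11-fold, Hesx1, a homeobox gene, at least 8.65-fold and Galnt16, a glycosyltransferase, at least 8.47-fold. Hesx1 read 9.33, 9.17 and 9.18 at E13.5 and 5.59 to 6.40 at E15.5.

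The largest falls outside the lists included Serpinb9b, a serine protease inhibitor, from 9.85, 9.88 and 10.28 to 4.60, 4.78 and 4.88, undetected and at least 14.3-fold lower (adjusted p = 6.08e-06). Slc5a5, the sodium-iodide symporter, fell by 3.66 (SE 0.22, adjusted p = 5.56e-05), from 12.25, 12.54 and 12.70 to 8.41, 9.09 and 9.0, and measured 10.88 to 11.22 at E15.5. Slc1a3, a glutamate transporter, was at least 12.2-fold lower and Rtn4rl1, a Nogo receptor relative, at least 6.52-fold. Aif1l fell by 3.42, and Flrt3, a membrane protein of adhesion, fell by 3.30. Gata2, a GATA factor, fell by 3.10, Dlx3, a homeobox gene, fell by 3.10 and Ak1, an adenylate kinase, fell by 3.07. Slc1a3, Aif1l, Flrt3 and Gata2 were detected on both non-germ arrays, at 10.60 and 10.30, 9.97 and 10.04, 11.19 and 10.73, and 11.30 and 11.36. Serpinb9b was detected on neither.

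Most markers of other gonadal cells were undetected on the germ cell arrays, and a few were high there. Of 16 Sertoli cell markers on the array, 2 to 3 were detected on each E11.5 array and 1, 3 and 6 on the E13.5 arrays, against 15 on each non-germ array. The mean level of that list was 8.16 and 8.59 on the non-germ arrays, but 5.65 to 5.72 at E11.5 and 5.32 to 6.06 at E13.5. Sox9, which defines Sertoli cells, was detected on 1 E11.5 array and on E13.5 replicates 2 and 3 (6.54 and 8.36), and Amh and Dhh were undetected on all 6. Aard, another Sertoli marker, read 11.52, 11.70 and 11.53 at E11.5 and 8.54, 9.11 and 10.33 at E13.5, a fall of 2.26 (SE 0.40, adjusted p = 0.00521) that a model over the 9 germ cell arrays did not call (adjusted p = 0.0685). For the interstitial and mesenchymal list of 15 genes the non-germ arrays averaged 10.5 and 10.6, the E11.5 arrays 5.69 to 6.18 and the E13.5 arrays 5.78 to 6.01. Of 5 measured members 2, Ptch1 and Mfap4, were called higher and 0 lower. The other 3, Acta2, Col3a1 and Pdgfra, were not called, and the median difference of the 5 was -0.41, the lowest being -1.32. A model over all 11 arrays did not call Mfap4 (adjusted p = 0.0823). Erythroid markers averaged 4.99 to 5.12 at E11.5 and 5.14 to 5.37 at E13.5, with Hba-a1 and Alas2 undetected. Their 1 measured member, the globin Hbb-bt, was undetected at E11.5, detected on 2 E13.5 arrays and at least 1.61-fold higher (adjusted p = 0.0157). The Hbb-bt call was lost without E11.5 replicate 3 (adjusted p = 0.0505) and in a model over all 11 arrays (adjusted p = 0.247). Leukocyte markers averaged 5.22 to 5.34 and 5.04 to 5.30, with Ptprc and Csf1r undetected, and pregranulosa markers 5.22 to 5.57 and 5.42 to 5.52, with Foxl2 undetected. Mesonephric and epithelial markers averaged 5.92 to 6.11 and 5.90 to 5.94, with Pax2 undetected. Of 10 on the array, 4, 4 and 3 were detected on the E11.5 arrays and 2 on each E13.5 array. Of 4 measured, 1 was called lower and 1 higher. Krt18 went from 6.80, 7.17 and 6.47 to 5.60, 5.01 and 5.71, undetected (adjusted p = 0.00572), which a model over all 11 arrays did not call (adjusted p = 0.0645). Lhx1 stood at 10.09, 10.38 and 10.56 and then rose to 11.37, 11.82 and 11.67 (adjusted p = 0.00243), above the non-germ levels of 9.09 and 8.96.

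For a pair of marker lists the E11.5 arrays all stood above the E13.5 arrays. The 8 fetal Leydig cell markers averaged 6.26, 6.33 and 6.60 at E11.5 against 5.87, 5.83 and 6.01, and the 15 endothelial markers 6.02, 6.07 and 6.05 against 5.72, 5.63 and 5.63. Insl3, a hormone of Leydig cells, read 7.49, 7.12 and 7.88 and then 4.58, 4.61 and 5.22, at least 2.52-fold lower (adjusted p = 0.000327), and a model over all 11 arrays did not call it (adjusted p = 0.129). The other measured Leydig markers were Scarb1, called lower, and Cyp11a1 and Star, not called, Star being at 8.49 to 8.92 at E11.5 and 8.66 to 8.89 at E13.5. Scarb1 too was not called by a model over all 11 arrays (adjusted p = 0.297). Of 5 measured endothelial markers 4 were called lower, namely Plvap, Esam, Egfl7 (detected on 1 E13.5 array) and Pecam1, and 2 were lower in a model over all 11 arrays. Pecam1, a surface protein, read 11.43, 11.32 and 11.10 and then 10.58, 10.67 and 10.61, above the non-germ levels of 7.44 and 9.68. Plvap was at least 1.09-fold lower (adjusted p = 0.00144), and Cdh5, which defines that cell type, was undetected on all 6. The part of such cells in the E11.5 levels was not tested. By count, 952 of 1178 genes called lower (80.8%) and 1096 of 1365 called higher (80.3%) were detected on both non-germ arrays, against 7936 of all 9423 (84.2%).

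**Figure D5:**
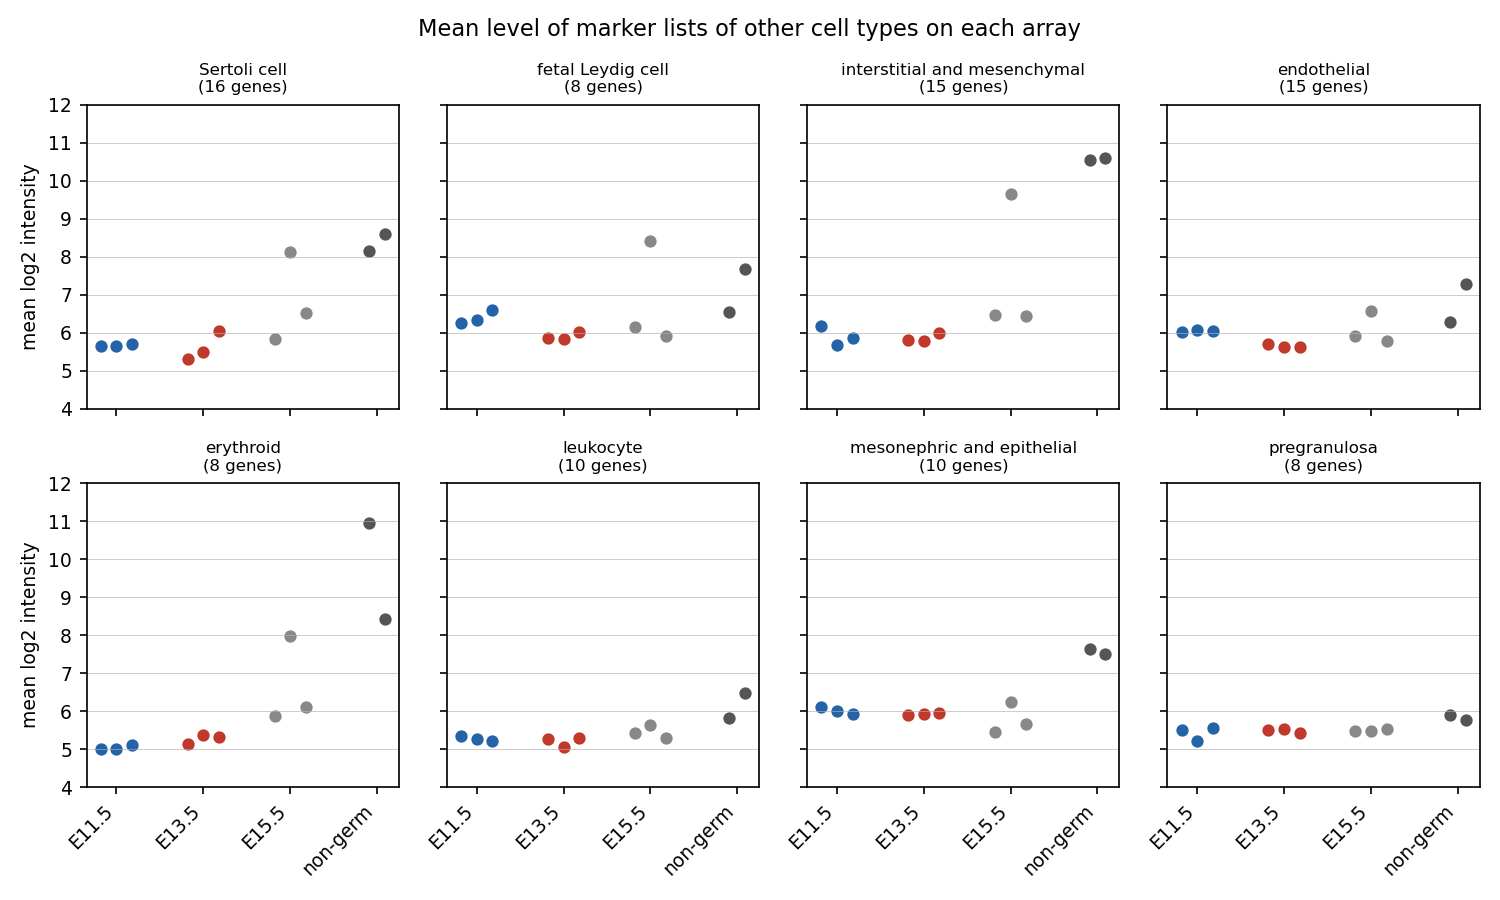
Mean normalized log2 intensity (vertical axes) of 8 marker lists of other gonadal cell types on each of the 11 arrays; each point is 1 array and the number of genes per list stands above each panel. The E11.5 and E13.5 germ cell arrays lie between 4.99 and 6.60 in every panel, the non-germ arrays are at 10.5 and 10.6 for interstitial and mesenchymal markers, and 1 E15.5 array, not used in the comparison, lies above the other germ cell arrays for most lists.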

How the data were processed

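Per the file headers, 1 deposited table gives each array's non-normalized probe intensity on a linear scale and, beside it, a detection p-value. The authors' second table holds processed intensity values that are a straight-line rescaling of the same signals (r = 1 on each array), linear and not centred, with column medians of 315.07, 326.053 and 325.532 at E11.5 and 325.855, 331.48 and 328.605 at E13.5 (316.98 to 341.746 on the other 5); neither how it was made nor the Illumina software is given in the sources used here. RNA was amplified from 10 ng and biotin-labelled, per the labels' protocols.

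In limma 3.58.1 (R 4.3.3), neqc took the deposited intensities of all 11 arrays and estimated the background through the detection p-values. It added 16 to each corrected intensity, applied quantile normalization and gave the result as log2. Only the 6 compared arrays were fitted (residual degrees of freedom 4, prior 4.11). Tests were two-sided and adjusted over 17613 probes. Folds are differences of log2 means. Each gene was represented by its brightest kept probe with 1 symbol; symbols came from a probe table (34885 probes with 1, 18 with several, 10378 not listed), and 99.8% matched RefSeq by Entrez number. Of 3531 genes with several kept probes, 442 were called one way on all, 890 on some, 2180 on none and 19 in both directions. The test was also run on simulated independent normal noise with known changes added. That noise had no detection floor and no effect shared by an array, so the run says nothing about dim or undetected genes. The number of arrays limits precision.

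The members and the 45 gene lists were chosen with earlier results of these data known; 549 of 880 listed genes were measured. Genes named are the 12 largest rises and falls, the 8 largest bounds each way, up to 3 called members per list and direction, and fixed germ cell and sex-linked genes. Named genes that passed no test were picked by role after their values were seen. After each probe's stage mean was subtracted, the deviations of same-numbered replicates correlated at 0.0429, -0.12 and 0.115, so the number was not used as a pairing. Alternatives changed normalization, filter, model and probe rule, or left out 1 array.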

Additional observations from a re-analysis of the deposited data

How the results depend on the processing

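Over the 12 alternatives that kept all 6 arrays, the count of genes called higher ran from 1045 to 1670 and that called lower from 874 to 1434, and of probes from 1806 to 2655 and 1532 to 2428. Leaving out 1 of the 6 arrays in turn, the other arrays of its stage being taken to vary alike, gave 957 to 1105 genes higher and 801 to 927 lower, 1576 to 1842 probes higher and 1413 to 1588 lower, and 571 to 675 genes at least 2-fold higher and 497 to 537 lower. With the replicate number as a block, 1177 genes were higher and 972 lower, but the labels do not say that equal numbers share a litter or day. The counts at 2-fold or more moved with the background: without its correction they were 137 higher and 131 lower, and on the authors' processed values, which are not background-corrected, 110 and 114. Genes higher made up 53.7% of those called, and 50 to 56.6% over the alternatives. Of 168 named genes called, 105 kept call and direction under all 18 alternatives, 13 did so under those that tested them (X- or Y-linked genes and dim genes drop out of some), 50 lost the call at least once and 0 reversed. A model over the 9 germ cell arrays, which takes in the E15.5 array that stands apart, lost the most, 26. Over all 18 alternatives, replication genes called lower ran from 5 to 21, mitosis genes lower from 1 to 5, pluripotency genes lower from 3 to 7 and oxidative phosphorylation genes lower from 0 to 7. Levels of undetected genes are bounds set by signal over background.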
